A study of Mus musculus with 13 samples.

Results

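The nuclear genes of respiratory complex I were taken as all protein-coding genes in the deposited table whose symbol starts with Ndufa, Ndufb, Ndufc, Ndufs or Ndufv, with the Ndufaf assembly factors left out. There were 38 such genes of 22656 in the table. They comprised 7 core subunits, among them Ndufs1, Ndufs3, Ndufs7, Ndufs8, Ndufv1 and Ndufv2, and 31 others, here called non-core, of which Ndufa4 and Ndufa4l2 are now assigned to complex IV. Gene expression was measured in 13 libraries of melanoma cells recovered from mouse lungs, 8 from APOE2 and 5 from APOE3 knock-in mice, which carry the named human allele in place of mouse Apoe. All hosts received tail vein injections of the same cells, B16F10-TR-shApoe, a derivative of the mouse melanoma line B16F10 whose name records a hairpin RNA against Apoe, so the groups differ in the allele of the host and not of the cells. Lungs were taken on day 15, and GFP+ CD45- cells with low TO-PRO-3 (a dye that enters dead cells) were sorted. The cells came from 1 line, and no age or sex of the hosts is given in the sources used here. Libraries were made with a QuantSeq forward kit, which reads transcripts next to the poly(A) tail.

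Complex I (NADH:ubiquinone oxidoreductase) is the entry point for electrons from NADH into the respiratory chain and pumps protons across the inner mitochondrial membrane. Its core subunits carry the flavin, the iron-sulphur clusters and the quinone site, or form the proton channels. The channel-forming core subunits are encoded by mitochondrial DNA, and the others by the nucleus. Accessory subunits surround the core, take no direct part in catalysis, and are needed to assemble and stabilise the enzyme. The matrix arm is built from an N module, which oxidises NADH, and a Q module, which reduces quinone. The membrane arm has a proximal part next to the matrix arm and a distal part.

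Values are normalised counts, that is, reads divided by a size factor of each library, and recovered read totals ranged from 7080308 to 13039989 per library. Log2 fold changes are APOE2 over APOE3 on the log2(normalised count + 1) scale, with the SE of limma's fit over 12403 genes that had a mean of at least 10 normalised counts. Adjusted p-values are Benjamini-Hochberg values over all of these genes, and a gene passed at an adjusted p under 0.05. By that criterion 51 genes were higher and 47 lower in APOE2 (with libraries scaled to equal totals, 38 higher and 54 lower). Checked against the label, all 10 melanocyte markers had reads in all 13 libraries. Marker RNA of other cell types was also present despite the sort, with higher mean sums in APOE3 except for the erythroid list. Lung epithelial markers summed to 0.0303% ± 0.0160 of the normalised counts in the APOE2 libraries (SD, n = 8), with a range from 0.00757% to 0.0483%, and to 0.139% ± 0.0801 in the APOE3 libraries (SD, n = 5), with a range from 0.0419% to 0.255%. The ranges of the other lists for APOE2 and APOE3 were 0.00597% to 0.0307% and 0.0268% to 0.15% for leukocytes, 0.00902% to 0.0142% and 0.0133% to 0.0280% for endothelium, and 0.00300% to 0.00841% and 0.00643% to 0.0354% for fibroblasts and smooth muscle. Erythroid markers had means of 0.00110% and 0.00108%, with ranges of 0.000480% to 0.00220% and 0.000284% to 0.00268%. Melanocyte markers took 4.20% to 5.73% in APOE2 and 3.41% to 4.47% in APOE3. Of the 10 melanocyte markers 4 had a lower mean log2 value in APOE2 and 0 passed. The median log2 fold change over the 10 was 0.013, and the largest was that of Dct (0.64). Of the listed markers, 12 of 15 lung epithelial, 14 of 14 endothelial, 13 of 13 fibroblast and smooth muscle, 17 of 20 leukocyte and 1 of 5 erythroid genes had a lower mean log2 value in APOE2. Values were available for 20 of 21 leukocyte and 5 of 7 erythroid markers, and the level of the missing ones is not known. Epcam, Hopx, Krt8, Krt18, Scgb1a1 and Scgb3a2 of the epithelial list were at 0 in at least 1 library. So were 12 leukocyte markers, Tyrobp, Csf1r and Cd3e among them, and Emcn, Tek and Tie1 of the endothelial list. The same held for 5 fibroblast and smooth muscle markers and 4 erythroid markers. No marker with values was at 0 in all 8 APOE2 libraries. The part of these cells in the complex I results was not tested beyond the fit with a lung epithelial covariate given below. APOE3 replicates 2 and 3 stood apart by Gm42418 (3.74% and 3.03% of normalised counts, against 0.662% to 2.17% in the other libraries), a gene whose reads are often ribosomal RNA. Complex I results are therefore also given without replicate 2, which was extreme for many members.

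Of the 38 members, 37 had the mean of 10 normalised counts needed for testing. Ndufa4l2, a hypoxia-inducible relative of Ndufa4, was at 0 in 12 libraries and at 2.26 normalised counts in APOE3 replicate 2. Among the 37, 3 were higher in APOE2 hosts (8.11%, against 0.411% of all genes tested) and 0 were lower (against 0.379% of all genes). At an unadjusted p under 0.05 there were 13 higher members (35.1%, against 7.51% of all genes) and 0 lower members (against 6.71%). The fold change was above 0 for 28 of 37 members, where 50.1% of all genes were above 0. The median log2 fold change was 0.17 over the members and 0.00037 over all genes. In 2 members (5.41%, against 0.476% of all genes) the lowest APOE2 library was above the highest APOE3 library, and in 0 members (against 0.508%) the highest APOE2 library was below the lowest of APOE3. Together the members took 1.42% ± 0.10 of the normalised counts in the APOE2 libraries (SD, n = 8), against 1.21% ± 0.058 for APOE3 (SD, n = 5). In these bulk libraries fewer cells of a type and less RNA per cell cannot be told apart.

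The 3 members that passed were accessory subunits of 3 different places in the complex: Ndufa6 of the N module, Ndufa1 of the proximal membrane arm and Ndufb11 of the distal membrane arm. Their promoters are shown with that of Ndufs7, a core gene, because 2 of these 4 (Ndufa1 and Ndufs7) hold the same short motif. Among the members with that motif, these 2 had the highest and the lowest fold change. Whether the motif bears on the fold change was not tested. Each promoter runs from 250 bases before to 50 bases after the RefSeq start, on GRCm38.p6, 5′ to 3′ on the gene's strand. Capitals mark matches to ATGGCGG, the core of the YY1 motif, or its reverse complement. The windows are chrX:37191189-37191488 (minus strand) for Ndufa1, chr15:82354242-82354541 (minus strand) for Ndufa6, chrX:20617570-20617869 (minus strand) for Ndufb11 and chr10:80249199-80249498 (plus strand) for Ndufs7.
Ndufa1: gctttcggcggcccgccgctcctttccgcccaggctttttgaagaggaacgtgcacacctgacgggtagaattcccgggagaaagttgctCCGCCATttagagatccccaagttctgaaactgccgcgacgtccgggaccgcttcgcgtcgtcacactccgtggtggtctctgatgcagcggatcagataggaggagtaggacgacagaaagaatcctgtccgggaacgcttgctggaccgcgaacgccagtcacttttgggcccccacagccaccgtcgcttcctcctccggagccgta
Ndufa6: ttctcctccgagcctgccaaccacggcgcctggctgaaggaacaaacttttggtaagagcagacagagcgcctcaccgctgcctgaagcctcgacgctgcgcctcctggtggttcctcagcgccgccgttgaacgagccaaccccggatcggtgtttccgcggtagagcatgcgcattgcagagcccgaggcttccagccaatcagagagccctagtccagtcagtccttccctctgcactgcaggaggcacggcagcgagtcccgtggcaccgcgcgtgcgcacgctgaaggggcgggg
Ndufb11: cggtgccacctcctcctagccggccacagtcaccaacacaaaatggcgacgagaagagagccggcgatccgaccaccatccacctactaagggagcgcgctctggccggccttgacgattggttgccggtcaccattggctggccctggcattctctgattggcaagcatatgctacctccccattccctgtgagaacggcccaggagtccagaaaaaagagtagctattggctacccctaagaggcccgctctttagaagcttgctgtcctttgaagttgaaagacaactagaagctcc
Ndufs7: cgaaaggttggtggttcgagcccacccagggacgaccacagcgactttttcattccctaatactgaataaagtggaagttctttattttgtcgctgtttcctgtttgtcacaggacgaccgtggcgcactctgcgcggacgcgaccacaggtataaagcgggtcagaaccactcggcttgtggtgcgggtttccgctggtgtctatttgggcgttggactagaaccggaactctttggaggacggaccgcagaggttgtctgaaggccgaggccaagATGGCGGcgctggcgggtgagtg

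Promoters of 33 of the 38 members were in the RefSeq table. The letters ATGGCGG, on either strand, were in 8 of the 33 (24.2%), against 9.94% of the 9296 tested genes with a promoter in the table. They contain a start codon, so in a window that reaches past the start some matches may be the first codon of the protein. In Ndufa9, Ndufb5, Ndufs4, Ndufs6 and Ndufs7 the match lies on the gene's strand within the 50 bases after the start. Whether it is the first codon there was not tested, and the shares given include such matches. The 8 genes were Ndufa1, Ndufa5, Ndufa7, Ndufa9, Ndufb5, Ndufs4, Ndufs6 and Ndufs7, whose log2 fold changes ran from −0.020 (Ndufs7) to 0.89 (Ndufa1). Only that of Ndufs7 was below 0. The palindromic NRF1 motif was in 1 member (3.03%, against 2.47%), the ETS motif CCGGAAG in 4 (12.1%, against 21.2%) and the estrogen-related receptor motif TCAAGGTCA in 0 (against 0.333%). These motifs were searched on both strands, and none of the 4 contains another. The promoters of Ndufa6 and Ndufb11 held none of the 4.

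Ndufb11 (ENSMUSG00000031059, chrX:20615326-20617619, minus strand) encodes a single-pass subunit of the distal membrane arm and is X-linked. In APOE2 its normalised counts ran from 2285 through a median of 2513 to 2999, and in APOE3 replicates 1 to 5 they were 1969, 1782, 1667, 2090 and 1794. The groups did not overlap, and APOE3 replicate 2 lay within the range of its group. The means were 2575 ± 255 (SD, n = 8) and 1860 ± 168 (SD, n = 5), a log2 fold change of 0.47 ± 0.10 (SE; 95% interval 0.26 to 0.68; limma adjusted p = 0.0301), or 1.38-fold. Its exons overlap those of Rbm10 on the opposite strand, and its last 300 bases share a run of at least 50 bases with Gm6444, so reads could have been assigned to another gene.

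Ndufa6 (ENSMUSG00000022450, chr15:82350140-82354322, minus strand) encodes a LYR-motif protein that binds the mitochondrial acyl carrier protein, the product of Ndufab1. Its normalised counts in APOE2 ran from 3996 through a median of 4819 to 6518, and in APOE3 they were 3650, 2795, 3120, 3929 and 3755. Again the groups did not overlap, although the lowest APOE2 and highest APOE3 libraries were close together, and APOE3 replicate 2 was the lowest of all 13. The log2 fold change was 0.54 ± 0.12 (SE; 95% interval 0.29 to 0.79; limma adjusted p = 0.0327), with means of 5026 ± 806 (SD, n = 8) and 3450 ± 474 (SD, n = 5).

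Ndufa1 (ENSMUSG00000016427, chrX:37187588-37191163, minus strand) encodes the shortest protein among the 37, of 70 residues, anchored in the proximal membrane arm, and is also X-linked. In APOE2 its normalised counts ran from 6293 through a median of 10659 to 12634, and in APOE3 they were 7585, 2655, 7107, 4656 and 7296. The groups overlapped, because the lowest APOE2 library, replicate 6, fell below 3 APOE3 libraries. The other 7 APOE2 libraries exceeded every APOE3 library. The log2 fold change was 0.89 ± 0.20 (SE; 95% interval 0.47 to 1.30; limma adjusted p = 0.0363), with means of 10313 ± 2053 (SD, n = 8) and 5860 ± 2140 (SD, n = 5).

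**Figure D1:**
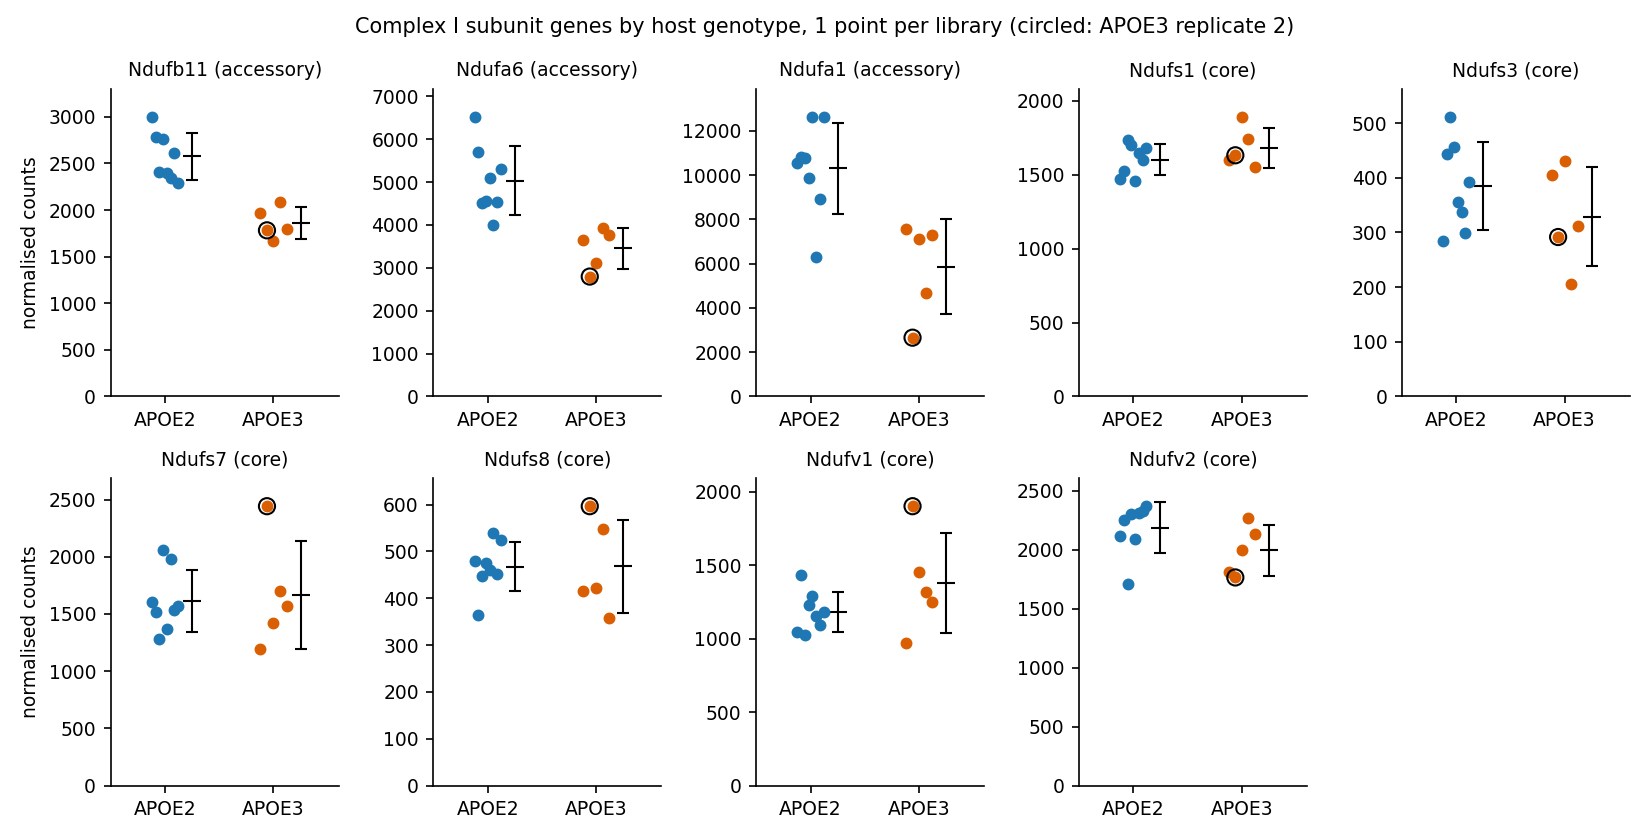
Normalised counts of the 3 subunit genes that passed the test and of 6 nuclear core genes, 1 point per library (8 APOE2, 5 APOE3), with the mean and SD beside the points and APOE3 replicate 2 circled. Ndufb11 and Ndufa6 do not overlap between the groups, Ndufa1 overlaps through 1 APOE2 library, and all 6 core genes shown overlap.

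All 3 calls lay close to the threshold. Without APOE3 replicate 2 the adjusted p was 0.038 for Ndufb11 (log2 fold change 0.45), 0.056 for Ndufa6 (0.47) and 0.053 for Ndufa1 (0.63). Leaving out each library in turn ended the call in 6 of 13 fits for Ndufb11, in 8 of 13 for Ndufa6 and in 10 of 13 for Ndufa1. edgeR on the recovered reads of 12 libraries gave 0.46 (adjusted p = 0.0681) for Ndufb11, 0.52 (adjusted p = 0.0733) for Ndufa6 and 0.81 (adjusted p = 0.0821) for Ndufa1. DESeq2 on the same reads gave adjusted p-values of 0.00444 for Ndufb11, 0.00846 for Ndufa6 and 0.0985 for Ndufa1. For limma on those 12 libraries, that is without APOE2 replicate 2, the adjusted p-values were 0.0760, 0.0851 and 0.0895 in the same order. With the lung epithelial markers as a covariate in limma, 0 members passed, the median log2 fold change of the members was 0.25, and 32 of 37 were above 0. The directions of the 3 genes held in all of these fits.

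The core genes lay nearer to all genes tested. None of the 7 had an unadjusted p under 0.05, where 7.51% of all genes were higher and 6.71% lower at that level. In 7 genes a count of 0 is close to those shares. Of the 7, 4 (57.1%) had a fold change above 0, against 50.1% of all genes. The core median log2 fold change was 0.016 (−0.025 with libraries scaled to equal totals). Among the 30 tested non-core members, 24 were above 0 and the median was 0.23. The difference between the medians, 0.21, was 0.11 without APOE3 replicate 2, the lowest value with any 1 library left out, and ranged from 0.15 to 0.30 over the other alternatives. It is a description of 2 groups of genes and has no test.

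In the N module, the core subunits are Ndufv1, which binds the flavin and NADH, Ndufv2, which holds an iron-sulphur cluster beside it, and Ndufs1, which carries a chain of such clusters. Ndufv1 counts in APOE2 ran from 1027 through a median of 1169 to 1430, and in APOE3 they were 971, 1902, 1452, 1315 and 1251. APOE3 replicate 2 was the highest of all 13 libraries and replicate 1 the lowest, so the groups overlapped over their whole range. The log2 fold change of Ndufv1 was −0.19 (95% interval −0.47 to 0.082; limma adjusted p = 0.531), and −0.069 without APOE3 replicate 2.

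Ndufs1, the longest protein among the members at 727 residues, had APOE2 counts from 1455 through a median of 1625 to 1734, and APOE3 counts of 1602, 1632, 1891, 1741 and 1551. The groups overlapped and the log2 fold change was −0.071 (95% interval −0.27 to 0.13; limma adjusted p = 0.791). Ndufv2 had APOE2 counts from 1709 through a median of 2276 to 2370, and APOE3 counts of 1811, 1766, 1996, 2273 and 2132. Its lowest value was in an APOE2 library, replicate 3, and 4 APOE2 libraries lay above all of APOE3. The log2 fold change of Ndufv2 was 0.13 (95% interval −0.088 to 0.35; limma adjusted p = 0.610).

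In the Q module, Ndufs7, which holds the last cluster before quinone, had APOE2 counts from 1278 through a median of 1550 to 2063, and APOE3 counts of 1193, 2442, 1419, 1697 and 1571. APOE3 replicates 1 and 2 were the lowest and the highest of all 13 libraries, and the log2 fold change was −0.020 (95% interval −0.32 to 0.28; limma adjusted p = 0.970), turning to 0.13 without replicate 2.

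Ndufs8, which holds a pair of iron-sulphur clusters, had APOE2 counts from 364 through a median of 467 to 539, and APOE3 counts of 415, 597, 422, 549 and 359. The spread was wider in APOE3 than in APOE2, the groups overlapped, and its log2 fold change was 0.016 (95% interval −0.28 to 0.31; limma adjusted p = 0.977). Ndufs3, a Q module subunit that holds no cofactor, had APOE2 counts from 284 through a median of 374 to 511, and APOE3 counts of 405, 292, 430, 206 and 311. The groups overlapped, and its log2 fold change was 0.25 (95% interval −0.13 to 0.63; limma adjusted p = 0.573). The upper bounds for Ndufs1, Ndufs7, Ndufs8, Ndufv1 and Ndufv2 lie below the fitted fold change of Ndufb11, while that of Ndufs3 does not. The 95% interval of Ndufb11 itself, 0.26 to 0.68, overlaps those of Ndufs3, Ndufs7, Ndufs8 and Ndufv2. Ndufb11 had the smallest p of the members, and no difference between it and a core gene was tested. A core gene that missed the threshold is not shown to be equal between the hosts.

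**Figure D2:**
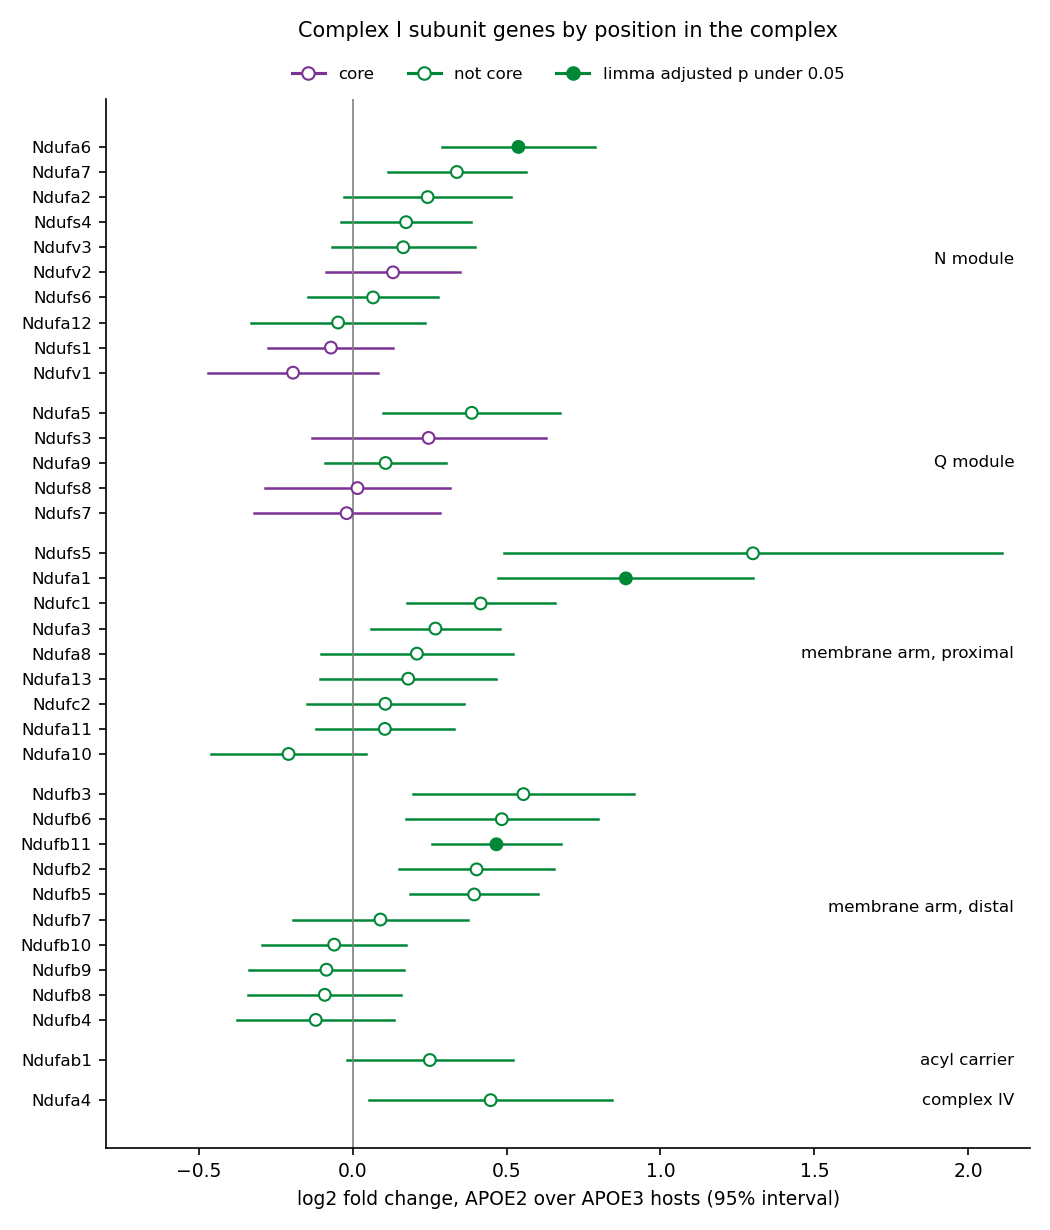
Log2 fold change, APOE2 over APOE3 (horizontal axis), of 36 tested members with limma's 95% interval, grouped by position in the complex. Filled points passed at an adjusted p under 0.05, and the core genes lie between −0.19 and 0.25.

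By position, 1 of 10 N module genes passed (Ndufa6; median log2 fold change 0.15, 7 of 10 above 0), 0 of 6 Q module genes (median 0.11, 5 of 6 above 0), 1 of 9 proximal membrane arm genes (Ndufa1; median 0.21, 8 of 9 above 0) and 1 of 10 distal membrane arm genes (Ndufb11; median 0.24, 6 of 10 above 0). Over all genes tested 0.411% passed as higher and 50.1% were above 0. With 6 to 10 genes each, the modules are not told apart by these counts. The 9 non-core genes of the matrix arm had a median of 0.17 with 8 above 0, and the 19 membrane arm genes, all non-core, had a median of 0.21 with 14 above 0. In the distal arm 5 genes had an unadjusted p under 0.05 and log2 fold changes of 0.39 (Ndufb5) to 0.55 (Ndufb3), while Ndufb4, Ndufb8, Ndufb9 and Ndufb10 lay between −0.12 and −0.060. Of these 4, Ndufb9 was at 0.037 without APOE3 replicate 2, Ndufb8 was at 0.040 without replicates 2 and 3, and Ndufb8, Ndufb9 and Ndufb10 were at 0.054, 0.011 and 0.093 with the lung epithelial covariate. Further members named from here to the end of the next 2 paragraphs, beyond those of the rule given in the processing account, were chosen after their values were seen.

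Ndufb5, another single-pass distal subunit, came nearest to passing. Its counts in APOE2 ran from 5577 through a median of 6615 to 7086, and in APOE3 they were 4700, 4880, 4219, 5764 and 5279. Of the 8 APOE2 libraries 7 exceeded every APOE3 library, and the log2 fold change was 0.39 ± 0.10 (SE; limma adjusted p = 0.0647). Ndufc1, a small subunit of the proximal membrane arm, had APOE2 counts from 3142 through a median of 4545 to 5165, and APOE3 counts of 3314, 3076, 3222, 3140 and 3516. As in Ndufa1, APOE2 replicate 6 was the 1 library that overlapped APOE3, and the log2 fold change was 0.42 ± 0.12 (SE; limma adjusted p = 0.0975). Ndufa3, Ndufa7, Ndufb2, Ndufb3 and Ndufb6, the other accessory genes with an unadjusted p under 0.05 besides Ndufa5 and Ndufs5, had log2 fold changes from 0.27 to 0.55 and adjusted p-values from 0.123 to 0.223.

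Ndufs5, an accessory subunit of the proximal arm that is imported through disulphide relay, had the largest fold change and the lowest mean of the tested members. Its normalised counts in APOE2 ran from 69.9 through a median of 148 to 260, and in APOE3 they were 67.4, 13.6, 72.8, 58.4 and 140. APOE3 replicate 2 was far below all others, and every APOE2 library was above the APOE3 median. The log2 fold change was 1.30 ± 0.39 (SE; limma adjusted p = 0.123), and 0.81 without APOE3 replicate 2. Its 3′ end shares at least 50 bases with BC002163, itself at low counts, so the level of Ndufs5 is uncertain. At the other end, Ndufa10, a nucleoside-kinase-like subunit, had the lowest fold change. Its counts in APOE2 ran from 1237 through a median of 1709 to 1921, and in APOE3 they were 1771, 2539, 1742, 1851 and 1806. APOE3 replicate 2 was the highest of all 13, and the log2 fold change was −0.21 (95% interval −0.46 to 0.043; limma adjusted p = 0.447), or −0.11 without it.

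Ndufa5, an accessory Q module subunit, had the highest mean tag count. Its counts in APOE2 ran from 8674 through a median of 12262 to 16133, and in APOE3 they were 10252, 9014, 8022, 7707 and 11554. The groups overlapped, with 6 of 8 APOE2 libraries above all of APOE3, and the log2 fold change was 0.39 ± 0.14 (SE; limma adjusted p = 0.205). Ndufab1, the mitochondrial acyl carrier protein, serves in lipoate synthesis and iron-sulphur biogenesis besides binding to complex I at 2 places. It had APOE2 counts from 985 through a median of 1621 to 1841, and APOE3 counts of 1318, 1269, 1425, 1302 and 1105. APOE2 replicate 3 was the lowest of all 13 and the other 7 were above all of APOE3, for a log2 fold change of 0.25 ± 0.13 (SE; limma adjusted p = 0.387). Ndufa4, now counted as a subunit of cytochrome c oxidase, had APOE2 counts from 2499 through a median of 4085 to 5061, and APOE3 counts of 3613, 1458, 4077, 2474 and 3849. Its log2 fold change of 0.45 ± 0.19 (SE; limma adjusted p = 0.296) fell to 0.20 without APOE3 replicate 2, the lowest of the 13. Leaving Ndufa4 and Ndufa4l2 out changed no call and gave a median of 0.17 over the other members.

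The level of the 2 subsets was also followed library by library. The 7 core genes had a mean log2 value of 10.29 ± 0.081 across APOE2 libraries (SD, n = 8), from 10.20 to 10.44, and of 10.26 ± 0.12 across APOE3 libraries (SD, n = 5), from 10.14 to 10.44. The 2 groups covered nearly the same range, and the highest library of all was APOE3 replicate 2. The mean log2 value of the 30 tested non-core members was 11.43 ± 0.13 in APOE2, from 11.22 to 11.64, and 11.16 ± 0.074 in APOE3, from 11.06 to 11.26. Of the APOE2 libraries only replicate 6 fell within the APOE3 range, and the lowest of all 13 was APOE3 replicate 2. The non-core mean minus the core mean was 1.13 ± 0.17 in APOE2 and 0.90 ± 0.18 in APOE3, where it ran from 0.62 in replicate 2 to 1.08 in replicate 5. APOE2 replicate 1 had the highest difference, 1.43. These per-library means are descriptions of the chosen genes and carry no test.

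**Figure D3:**
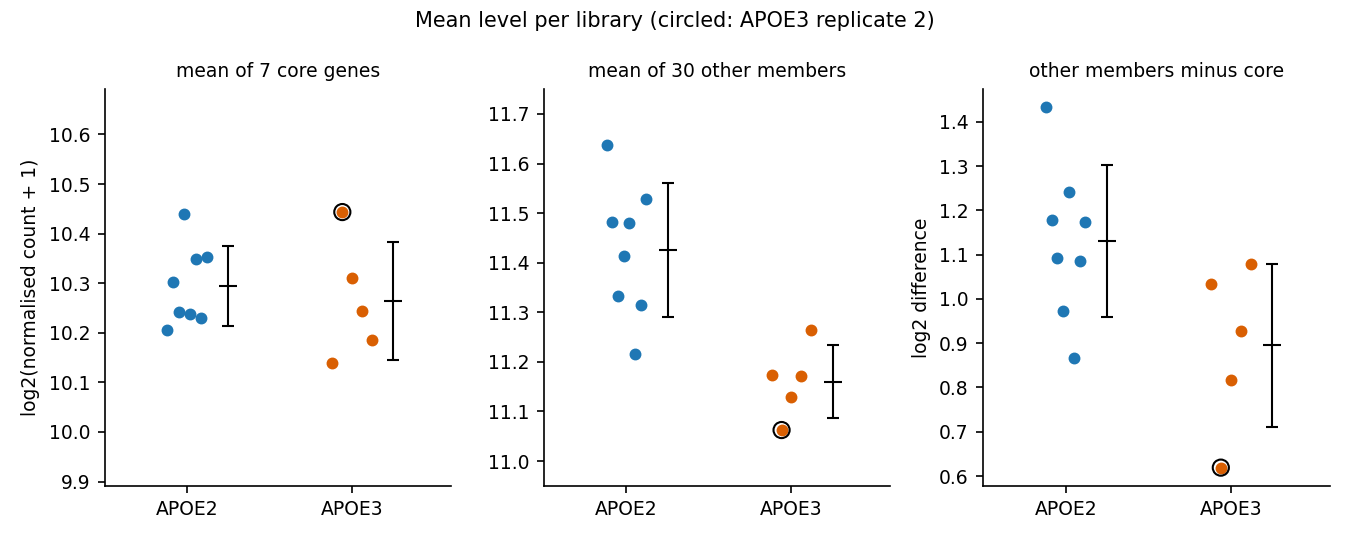
Mean log2(normalised count + 1) of the 7 core genes, of the 30 tested non-core members, and the difference of these means, 1 point per library, with the group mean and SD beside the points and APOE3 replicate 2 circled. The core means cover nearly the same range in both groups, while the non-core means of 7 of 8 APOE2 libraries exceed those of all 5 APOE3 libraries.

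APOE3 replicate 2 did not act as a uniformly low library. It was the lowest of 13 for 10 of the 37 tested members and the highest for 9. APOE2 replicate 1 was the highest for 11 and the lowest for 0, and APOE3 replicates 1 and 3 were each the lowest for 7. Relative to the other 4 APOE3 libraries, replicate 2 ran from a log2 difference of −2.56 (Ndufs5) to 0.79 (Ndufa12). Across the 37 members this difference rose with the GC content of the transcript (Pearson r = 0.46, Spearman rho = 0.51, across genes), and across 12401 genes the same correlation was weaker (r = 0.12). The genes share that library and its depth, and genes are not independent replicates. Leaving replicate 2 out gave 31 of 37 members above 0, a median log2 fold change of 0.20 and 1 call, Ndufb11.

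The non-core members differ from the core genes in protein length, which ran from 70 to 468 residues in the 30 tested non-core members and from 212 to 727 in the core. Across the 37 members the log2 fold change fell with the log2 of protein length (Pearson r = −0.56, Spearman rho = −0.62), and within the 30 non-core members r was −0.51. Without APOE3 replicate 2 it was −0.59 over the 37. Over all 11194 tested genes with a coding sequence r was −0.088. All 11 members of up to 120 residues had a fold change above 0, and their median log2 fold change was 0.40. Of the 16 members of over 120 and up to 200 residues 11 were above 0 (median 0.14), and of the 10 longer ones, 7 of them core, 6 were above 0 (median 0.060). The 3 longer non-core members, Ndufa9, Ndufa10 and Ndufv3, had log2 fold changes of 0.11, −0.21 and 0.16, where the core genes ran from −0.19 to 0.25.

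Short coding genes outside complex I also tended to be higher in APOE2. Of 412 other tested genes of up to 120 residues 67.7% were above 0, 26% were higher at an unadjusted p under 0.05 and 3.40% passed as higher, and their median log2 fold change was 0.16. For 1029 others of over 120 and up to 200 residues the share above 0 was 58.0% (median 0.058), and for 8103 others of over 200 and up to 1000 residues it was 49.4% (median −0.0037). The members' median of 0.40 in the shortest class stood beside 0.16 for the other genes. Of its 11 members 9 were higher at an unadjusted p under 0.05, beside 26% of the other genes, and 1 passed (Ndufa1). In the longest class 0.060 stood beside −0.0037. All 7 core genes encode proteins of over 200 residues, where only 3 non-core members lie, so core status and protein length cannot be told apart in these genes.

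GC content gave a similar but weaker order. In the 12 members of lowest GC content (42.0% to 48.4%) 11 were above 0 with a median log2 fold change of 0.40, in the middle 13 it was 10 with a median of 0.21, and in the 12 of highest GC content (54.8% to 60.4%) it was 7 with a median of 0.053. All tested genes in the same windows had medians of 0.048, 0.011 and −0.060. Without APOE3 replicate 2 the members' medians were 0.28, 0.13 and 0.14, so the order of the middle and highest classes was not kept without that library. What part length or base composition had in the differences was not tested.

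**Figure D4:**
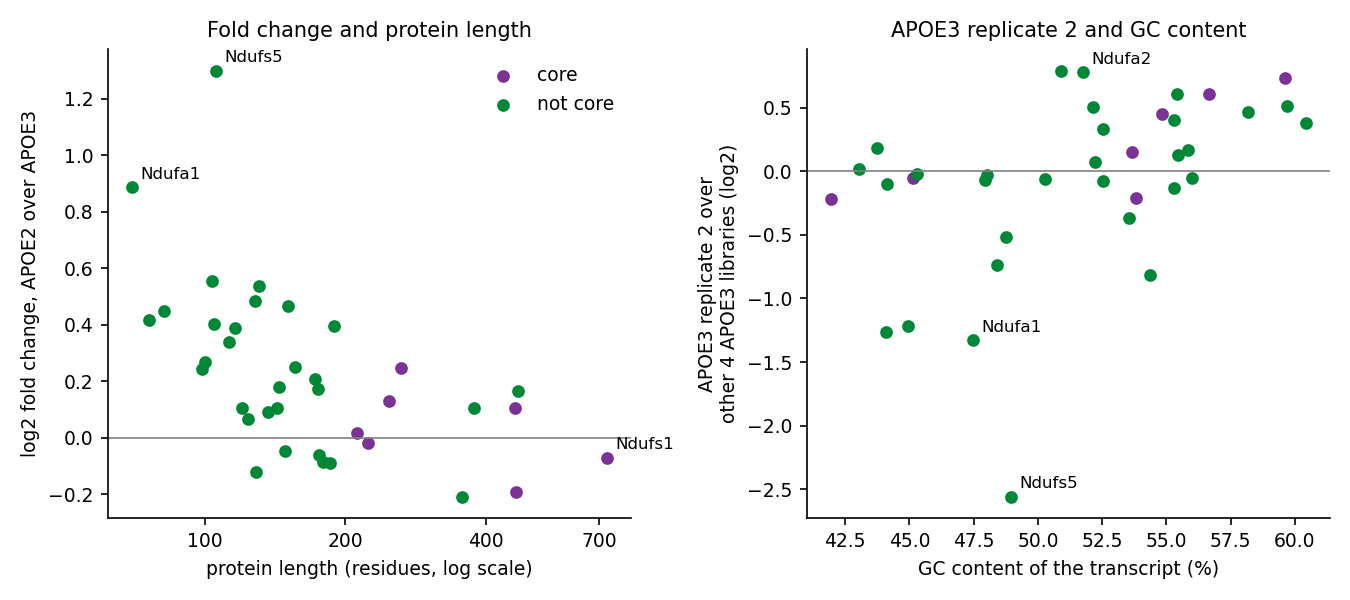
Left, log2 fold change of each of the 37 tested members against protein length on a log axis; right, log2 difference of APOE3 replicate 2 from the other 4 APOE3 libraries against the GC content of the transcript in percent. Fold changes fall with length (r = −0.56), and replicate 2 is low for several members under 50% GC and high for most members of the highest GC content.

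Exons of 17 of the 38 members overlap those of another gene, 15 on the opposite strand and 3 on the same strand, and 9 members share a run of at least 50 bases with another gene in their last 300 bases, where this kind of library is read. Neither the strand setting of the counting nor its treatment of shared reads is given in the sources used here. Among the 18 members with neither property, 13 (72.2%) were above 0, 2 passed (Ndufa1 and Ndufa6) and the median log2 fold change was 0.15. Over all genes tested 50.1% were above 0 and 0.411% passed as higher. One gene outside the rule bears on the list: Ndufb1-ps, annotated as a long non-coding RNA in the release used, is named after the subunit Ndufb1. Its counts in APOE2 ran from 4645 through a median of 6622 to 8148, and in APOE3 they were 4660, 1908, 4180, 4241 and 4067. Only 1 APOE2 library fell below the highest APOE3 library, and the log2 fold change was 0.80 ± 0.17 (SE; limma adjusted p = 0.0301).

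The partners of the nuclear subunits were read from lists of other mitochondrial genes. Of the 5 mitochondrially encoded complex I subunits tested, 0 passed and 2 were above 0. Over all genes tested 0.411% passed as higher, 0.379% passed as lower and 50.1% were above 0. The gene with the smallest p, mt-Nd4, encodes a proton-pumping subunit and averaged 57395 ± 5786 normalised counts for APOE2 (SD, n = 8) against 84536 ± 16304 for APOE3 (SD, n = 5), for a log2 fold change of −0.54 (limma adjusted p = 0.0646). The 5 summed to 2.41% ± 0.17 of the normalised counts for APOE2 and 2.92% ± 0.48 for APOE3, so the means differed in the direction opposite to that of the nuclear members. The groups overlapped, with ranges of 2.08% to 2.63% in APOE2 and 2.21% to 3.37% in APOE3. APOE3 replicates 2 and 3 were the highest, at 3.37% and 3.36%, and replicate 5 was the lowest of APOE3. Of 16 assembly factors 12 were above 0 and 0 passed (median log2 fold change 0.20), with Ndufaf3 at the smallest p (0.59, limma adjusted p = 0.158).

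Subunits of the other respiratory complexes and ATP synthase showed the same direction as complex I. Over all genes tested 50.1% were above 0, 0.411% passed as higher and 0.379% passed as lower. Of the 38 subunits tested here, 33 (86.8%) were above 0, their median log2 fold change was 0.25, and 3 passed, all higher in APOE2. They were Cox8a (0.72, adjusted p = 0.0241) and Cox7c (0.72, adjusted p = 0.0444), small subunits of cytochrome c oxidase, and Uqcrfs1 (0.59, limma adjusted p = 0.0334), the Rieske iron-sulphur protein of complex III. No difference between complex I and this list was tested. Of 77 mitochondrial ribosomal protein genes 50 (64.9%) were above 0 and 0 passed (median 0.13, smallest p for Mrpl44 at 0.48, limma adjusted p = 0.0925). Of 14 regulators of mitochondrial biogenesis 9 (64.3%) were above 0 and 0 passed, with Tfam, which packages mitochondrial DNA, at the smallest p (0.34, limma adjusted p = 0.308). Other mitochondrial proteins, such as chaperones, import and outer membrane proteins, gave 6 of 13 (46.2%) above 0, 0 passed and a median of −0.010, with Hspd1 at the smallest p (0.31, limma adjusted p = 0.168). Where 0 genes of these lists passed under limma, unadjusted p-values under 0.05 were also counted. Over all genes tested 7.51% were higher and 6.71% lower at that level. Of the 5 mitochondrially encoded subunits 1 was higher and 2 were lower, and of the 16 assembly factors 2 were higher. Of the 77 mitochondrial ribosomal proteins 12 were higher and 3 lower. Among the 14 biogenesis regulators and the 13 other mitochondrial proteins 1 each was higher, which is near the share over all genes.

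**Figure D5:**
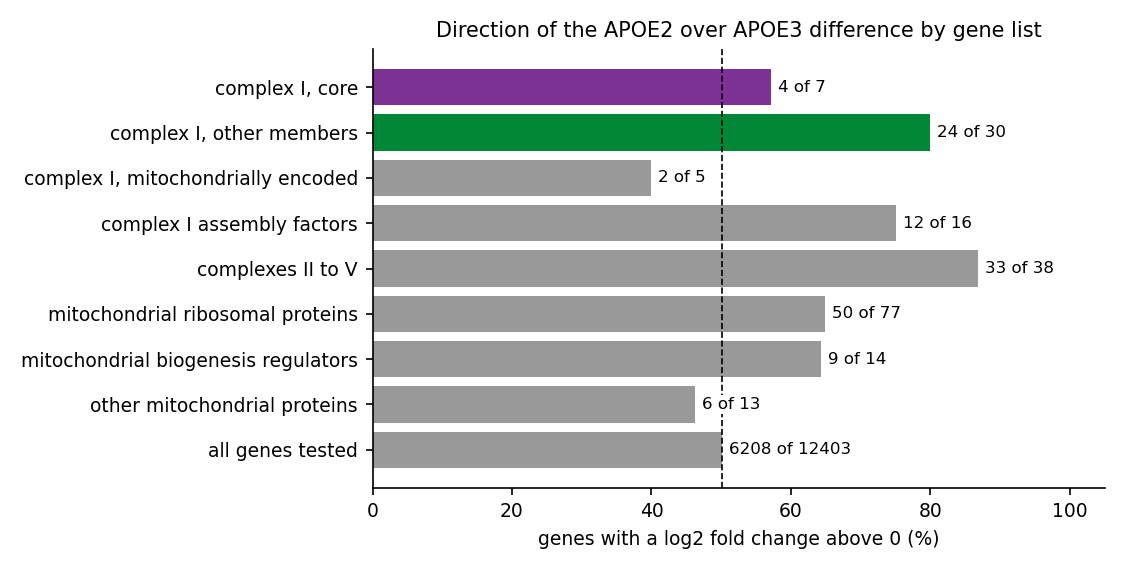
Share of tested genes with a log2 fold change above 0 (bars, percent) in complex I and in the other mitochondrial lists, with the counts beside the bars and the share over all 12403 genes as a dashed line. The share is 57.1% for the 7 core genes, 80.0% for the 30 other members and 86.8% for complexes II to V, against 50.1% of all genes.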

How the data were processed

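Per the submitters' processing notes, reads were handled with STAR 2.6.0, featureCounts and DESeq2 1.28.1 on mm10; their roles and settings are not given in the sources used here. The authors deposited normalised counts, a signal per gene and library and dividing by the smallest nonzero value of a library made 100% of its values whole (within 0.001), so reads could be recovered. For APOE2 replicate 2 that step was 1.009, and its values were whole multiples of it as well. A step so near 1 was treated as possible rounding, and read-based tests left this library out as a precaution. Of 22656 identifiers 22649 matched a symbol in GENCODE M21 (GRCm38, the same assembly as mm10).

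Values were analysed as log2(value + 1) with limma 3.58.1 in R 4.3.3 (intensity trend, two-sided) over the 12403 genes with a mean of at least 10, with Benjamini-Hochberg adjustment and a threshold of 0.05, after testing on simulated data. Alternatives were pseudocounts of 0.5 and 5, no filter and a minimum mean of 50, other scalings, limma without trend or robust, edgeR 4.0.16 and DESeq2 1.42.0 on recovered reads of 12 libraries, a replicate block, a lung epithelial covariate, a threshold of 0.1, and leaving out libraries; leaving out APOE3 replicates 2 and 3 together was added after seeing the data. Protein length is that of each gene's longest coding sequence in GENCODE, and GC content and transcript length are those of the same transcript. That transcript need not be the one the reads came from, so the length and GC classes are approximate. Named members are those that passed, the core genes, the smallest and largest fold change and mean, and Ndufa4, Ndufa4l2 and Ndufab1; in other lists, genes that passed and the gene with the smallest p. One core gene entered all counts and is not reported singly here. Members and lists were chosen with earlier results of these data known. Each library is taken as 1 mouse, since library and mouse numbers agree in the series' design. Reads carry no molecular identifiers. The lowest chi-square per degree of freedom between replicates was 12.4, more than independent draws of reads would give. Without such identifiers, duplicated reads and differences between replicates cannot be told apart in that value.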

Additional observations from a re-analysis of the deposited data

Results flagged for a closer look

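For each tested member and the 3 mean levels per library, in each group, the highest and lowest libraries were compared with the next one by Dixon's ratio of gap to range, at the 95% level. Of 80 such comparisons 6 gave a value that stood apart, where chance gives about 4. In APOE3 replicate 2 they were high values of Ndufa10 (2539 normalised counts, next 1851), Ndufa11 (3044, next 2360) and Ndufa2 (5565, next 3394). In APOE2 replicate 1 they were high values of Ndufa13 (4811, next 3620) and Ndufb7 (2008, next 1479). The other was a low value of Ndufv2 in APOE2 replicate 3 (1709, next 2094).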

How the results depend on the processing

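The count of complex I members that passed, 3 in the main analysis, was 0 with no filter on low values, 0 for limma without trend, 0 for edgeR, 0 with the lung epithelial covariate, 0 without both APOE3 replicates 2 and 3 and 5 at a threshold of 0.1; DESeq2 and TMM scaling each gave 4. DESeq2 lost Ndufa1 and gained Ndufb5 (adjusted p = 0.0187) and Ndufc1 (adjusted p = 0.0470). With 1 library left out it ran from 0 to 5. It was 0 without APOE2 replicates 1, 2, 5 or 7 or APOE3 replicate 3, 1 without APOE2 replicate 8 or APOE3 replicates 2 or 4, and 5 without APOE2 replicate 6. Over all genes the higher and lower calls, 51 and 47, became 5 and 4 with no filter, 0 and 0 for limma without trend (1599 genes at an unadjusted p under 0.05), 21 and 40 for edgeR, 91 and 125 for DESeq2, 2 and 1 with the covariate and 1 and 0 without APOE3 replicates 2 and 3. The cause of these changes was not tested, except that the filter and the left-out libraries change how many genes or libraries are tested. The median log2 fold change of the members ranged from 0.13 to 0.25 over 28 alternatives, and the non-core median stayed above the core median in all of them (by 0.11 to 0.30).

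Signs of core genes turned as follows: Ndufs8 was −0.025 at equal totals and −0.053 with the replicate block, Ndufs3 −0.0089 with the covariate, Ndufs7 0.11 with the covariate and 0.12 without APOE3 replicates 2 and 3, and Ndufv1 0.0090 without them. With 1 library left out Ndufs7 ran from −0.13 to 0.13 and Ndufs8 from −0.074 to 0.11. Turns among non-core members included Ndufa8 at −0.13 and Ndufb8 at 0.040 without APOE3 replicates 2 and 3, Ndufa12 at 0.11 and Ndufb9 at 0.037 without APOE3 replicate 2, Ndufa12, Ndufb8, Ndufb9 and Ndufb10 at 0.012, 0.054, 0.011 and 0.093 with the covariate, and Ndufb7 at −0.024 with 1 library left out.

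Same-numbered libraries did not deviate together (correlations from −0.063 to 0.014 over 5 pairs, none best with its own number), so no pairing by number was visible. With 5 pairs a weak pairing cannot be told from none. With the replicate block 1 member passed, Ndufa1, and over all genes 17 were higher and 26 lower. Depth limits Ndufs5 (13.6 normalised counts in APOE3 replicate 2) and Ndufa4l2.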

Other observations

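Ndufa1 and Ndufb11 are the 2 X-linked genes among the 38 members, and both passed the limma test (adjusted p = 0.0363 and 0.0301). This was noticed after the values were seen. Of 365 X-linked genes tested 3 were higher in APOE2 (0.822%), namely Cetn2, Ndufa1 and Ndufb11, and the median log2 fold change over the X-linked genes was −0.066, with 41.6% above 0. On the other chromosomes 0.399% of 12038 genes were higher and the median was 0.0029.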
